A study of Mus musculus with 4 samples.

Results

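RIKEN clone genes are mouse genes known mainly from full-length complementary DNA clones and still named by the clone, with a symbol that ends in Rik. Many make long non-coding RNAs (lncRNAs), transcripts that code for no protein and are often spliced, low in abundance and restricted to a tissue, and some code for proteins that have since received a name. H3K9me3 is a histone mark of silent chromatin that is laid down over repeats and over genes a cell keeps off. The regions described here are those that the authors listed as changed in H3K9me3 and that either had a RIKEN clone start as the nearest transcription start or lay in an intron or exon of a RIKEN clone gene, called the host. There were 446 such regions of 5432 in all, 391 by nearest start and 120 by host, with 65 counted both ways, and they named 393 clone genes.

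The mark was profiled by CUT&Tag, an assay in which an antibody brings a tagging transposase to chromatin that carries the mark, in microglia sorted from the telencephalon of C57BL/6 mouse embryos. The age label reads E14, and the protocol text puts collection slightly later. Controls (labelled WT) were Arid1a fl/fl embryos, which carry floxed alleles of a SWI/SNF chromatin remodelling subunit. The other group (labelled KO) was Arid1acKO-Cx3cr1, in which Cre driven by Cx3cr1 targets Arid1a in the cells that express it, chiefly microglia and other macrophages. Each genotype had 1 H3K9me3 and 1 IgG library from 100000 cells each. The labels do not say whether embryos were pooled. Read counts and per-library signals are not part of the lists. Depth is therefore unknown, no difference has a replicate check and no test between genotypes could be made. The lists hold no measure of RNA, and the labelled cell type could not be checked against its markers. Brackets give exact 95% binomial (Clopper-Pearson) intervals, which cover counting error only. Coordinates are those of the lists, read as GRCm38 because the transcripts named in the rows sit there, although the submitters' processing notes name mm9 and the build of the regions themselves is not stated.

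The sequences below are the promoter windows of RIKEN clone genes that a listed region overlapped, shown because at these genes a listed region lay within the promoter window. A promoter sequence, 250 bases before to 50 after a start, was found in RefSeq for 255 of the 393 clone genes, and 5 of these windows overlapped a region. Each is given 5′ to 3′ on the strand of the gene from the GRCm38.p6 assembly, with the bases inside the listed region in capitals. The first pair, A330049N07Rik (chr10:73086656-73086955, minus strand) and 4930432O09Rik (chr10:121202600-121202899, minus strand), were higher in KO. The others, 2310001H17Rik (chr6:129237996-129238295, minus strand), 4933402C05Rik (chr7:6038857-6039156, plus strand) and an alternative upstream start of 4930447F24Rik (chr9:108133468-108133767, plus strand), were lower.
A330049N07Rik: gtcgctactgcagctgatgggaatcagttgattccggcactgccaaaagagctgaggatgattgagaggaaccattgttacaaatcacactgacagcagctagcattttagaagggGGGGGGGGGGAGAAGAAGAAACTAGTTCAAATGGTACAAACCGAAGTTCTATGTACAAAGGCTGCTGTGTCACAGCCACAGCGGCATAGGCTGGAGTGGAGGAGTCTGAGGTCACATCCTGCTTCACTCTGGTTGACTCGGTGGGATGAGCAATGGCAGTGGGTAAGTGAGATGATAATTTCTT
4930432O09Rik: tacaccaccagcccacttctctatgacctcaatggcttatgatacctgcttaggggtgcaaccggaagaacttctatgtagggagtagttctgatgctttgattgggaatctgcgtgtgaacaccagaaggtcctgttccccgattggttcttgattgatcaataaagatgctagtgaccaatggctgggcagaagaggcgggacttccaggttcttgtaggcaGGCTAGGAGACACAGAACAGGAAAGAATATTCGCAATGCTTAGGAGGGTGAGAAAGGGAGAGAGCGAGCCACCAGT
2310001H17Rik: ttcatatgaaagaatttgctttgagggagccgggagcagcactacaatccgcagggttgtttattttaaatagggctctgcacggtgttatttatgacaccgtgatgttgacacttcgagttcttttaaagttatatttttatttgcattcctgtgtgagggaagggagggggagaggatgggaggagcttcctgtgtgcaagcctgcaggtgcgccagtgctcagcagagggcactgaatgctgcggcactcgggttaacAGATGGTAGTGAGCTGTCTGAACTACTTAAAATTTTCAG
4933402C05Rik: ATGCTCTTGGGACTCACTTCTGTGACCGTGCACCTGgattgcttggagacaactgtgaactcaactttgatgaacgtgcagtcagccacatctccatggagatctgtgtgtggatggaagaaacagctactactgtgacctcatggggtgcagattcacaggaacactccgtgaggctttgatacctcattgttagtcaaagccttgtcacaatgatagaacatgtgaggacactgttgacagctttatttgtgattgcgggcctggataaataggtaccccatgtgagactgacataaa
4930447F24Rik: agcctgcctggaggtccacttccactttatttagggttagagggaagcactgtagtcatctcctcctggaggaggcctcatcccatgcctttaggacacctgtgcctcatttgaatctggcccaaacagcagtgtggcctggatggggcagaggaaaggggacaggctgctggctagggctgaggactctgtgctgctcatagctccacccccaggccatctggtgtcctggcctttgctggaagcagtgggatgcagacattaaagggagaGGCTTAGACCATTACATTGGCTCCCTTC
The region at A330049N07Rik covered the last 184 bases of the window and the start itself, and that at 4930432O09Rik the last 76, also with the start. At the 3 lower genes the overlap was 39, 36 and 28 bases and did not include the RefSeq start. The RefSeq starts of A330049N07Rik and 4930432O09Rik were the same base as in the lists, while those of 2310001H17Rik and 4933402C05Rik lay 97 and 24 bases away. All 5 windows had a GC content between 46.7% and 56.0%, against a median of 50.3% over 2090 RIKEN promoters and 52.7% over 32817 mouse promoters. CG pairs numbered 5 and 6 in the higher and 8, 4 and 0 in the lower windows, beside a median of 6 over RIKEN promoters. None of 3 motifs searched on both strands was in any of the 5 windows. These were TATAAA, the TATA box, which 12.7% of RIKEN and 13.6% of all promoters held, GGGCGG, the GC box bound by Sp factors (26.5% and 35.6%), and GAGGAAGT, the core bound by the macrophage factor PU.1 (3.06% and 3.20%). The motifs do not overlap one another. The absence of a match says only that these letters are not in these windows.

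The first question was how the RIKEN clone regions divided between more and less H3K9me3 in KO. More were listed as higher, 307 against 139, a share of 68.8% (64.3 to 73.1). Over all 5432 listed regions the share was 64.2%, and over the 4986 regions outside the RIKEN set 63.8% (62.5 to 65.1). The higher list held them at 8.80% (7.88 to 9.79) and the lower list at 7.15% (6.04 to 8.39). The intervals of these shares overlap. As both lists come from 1 library per genotype, no test of the difference was made.

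The share listed as higher differed with how the gene was assigned, although the intervals by nearest start and by host overlap and these sets share regions. By nearest start, 264 regions were higher and 127 lower, 67.5% (62.6 to 72.1). By host, 93 were higher and 27 lower, 77.5% (69.0 to 84.6). The fitting background for hosts is the 2062 regions inside an intron or exon of any gene, of which 63.9% were higher. Hosts outside the RIKEN set gave 63.1% (60.9 to 65.2), and predicted genes, named with Gm numbers, 63.1% (56.3 to 69.6) over 217 regions. By nearest start, predicted genes gave 65.6% (63.8 to 67.4) over 2739 regions. Of the higher regions inside genes, 7.06% (5.73 to 8.58) had a RIKEN host, and of the lower ones 3.63% (2.41 to 5.24).

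**Figure D1:**
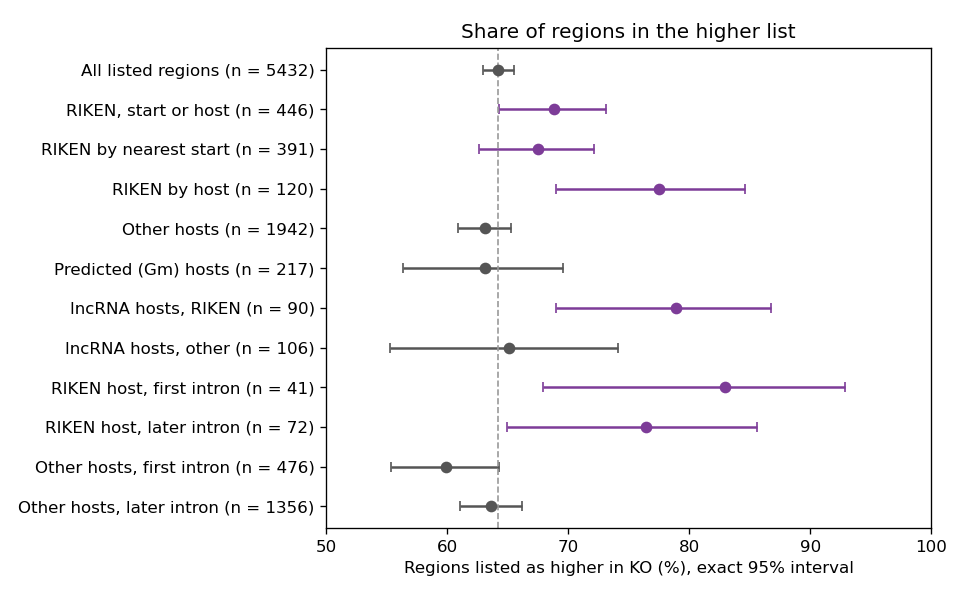
Share of regions in the higher list (%, horizontal axis) for sets of listed regions, with exact 95% intervals as bars, RIKEN sets in purple and other sets in grey. The dashed line marks 64.2%, the share over all listed regions; RIKEN hosts lie at 77.5%, to the right of the other hosts at 63.1%.

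The type of transcript was read from RefSeq, where 296 of the 393 clone genes matched by symbol and 11 by a synonym, the latter less certain. LncRNA genes were 251 (63.9%), protein-coding genes 47, and 86 had no match. Over the 2300 RIKEN genes in RefSeq, where none is unmatched, 77.7% were lncRNA and 18.3% protein-coding genes. The base of the 63.9% includes the 86 genes without a match, so it cannot be set directly against the 77.7%. Among hosts, RIKEN lncRNAs held 71 higher and 19 lower regions, 78.9% (69.0 to 86.8). LncRNA hosts with other names held 69 and 37, 65.1% (55.2 to 74.1), and the 2 intervals overlap. RIKEN hosts that code for protein held only 9 higher and 5 lower regions, and those without a match 12 and 3. By nearest start the shares of RIKEN and other lncRNAs lay close together. RIKEN lncRNAs had 165 higher and 88 lower regions, 65.2% (59.0 to 71.1), and other lncRNAs 261 and 139, with an interval of 60.4 to 69.9. Protein-coding RIKEN starts had 28 and 12, 70.0% (53.5 to 83.4), against 61.5% (59.3 to 63.7) over protein-coding starts with other names. RIKEN starts without a RefSeq match had 66 and 24, 73.3% (63.0 to 82.1).

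Within the host gene the higher list led in introns; no test of the differences from other hosts was made. In first introns, RIKEN hosts had 34 higher and 7 lower regions, 82.9% (67.9 to 92.9), while other hosts had 285 and 191, 59.9% (55.3 to 64.3). In later introns the counts were 55 and 17, 76.4% (64.9 to 85.6), against 63.6% (61.0 to 66.2). The exons of RIKEN clone genes held 4 higher and 3 lower regions. The median RefSeq length of the host was 35.0 kb (quartiles 19.2 and 89.5) for the 81 higher regions with a matched RIKEN host and 120 kb (31.8 and 171) for the 24 lower regions, whereas over all hosts it was 156 kb and 145 kb. The ranges for RIKEN hosts overlap, from 1.39 to 594 kb and from 6.03 to 594 kb.

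Introns made up more of the higher list and promoters more of the lower list, with intervals that overlap. In the higher list 152 of 307 regions were intronic (49.5%, 43.8 to 55.3), 120 distal intergenic (39.1%, 33.6 to 44.8) and 28 in promoters, within 3 kb of a start (9.12%, 6.15 to 12.9). In the lower list 51 of 139 were intronic (36.7%, 28.7 to 45.3), 60 distal intergenic (43.2%, 34.8 to 51.8) and 23 in promoters (16.6%, 10.8 to 23.8). In the full lists, introns made up 35.5% of the higher and 36.4% of the lower regions. Distal intergenic regions made up 47.9% and 46.5% there, and promoters 12.6% and 12.8%. Read by class, introns were 74.9% higher (68.3 to 80.7), distal intergenic regions 66.7% (59.3 to 73.5) and promoters 54.9% (40.3 to 68.9). The same classes over all listed regions were 63.6%, 64.9% and 63.8% higher. The rule takes part in this pattern, because a host is named only for introns and exons, so that counting by host adds regions inside genes and none elsewhere. By nearest start alone, intronic regions were 41.3% (35.3 to 47.5) among the higher ones and 31.5% (23.6 to 40.3) among the lower ones, and promoter regions 10.6% (7.16 to 15.0) and 18.1% (11.8 to 25.9).

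Few higher regions lay just upstream of a RIKEN start. Within 3 kb upstream of a RIKEN start lay 8 of 264 higher regions (3.03%, 1.32 to 5.88) and 11 of 127 lower regions (8.66%, 4.40 to 15.0). Outside the RIKEN set these shares were 6.44% (5.62 to 7.35) and 6.43% (5.34 to 7.66). The RIKEN intervals overlap each other, and each also overlaps the interval of the same list outside the set. Within 3 kb downstream of a RIKEN start lay 6.82% of the higher and 8.66% of the lower regions. Outside the set these downstream shares were 5.85% and 5.60%. Over both lists, 230 of the 391 regions with a RIKEN nearest start lay downstream of it (58.8%, 53.8 to 63.8), against 51.6% (50.2 to 53.0) outside the set. The median distance to a RIKEN start was 21.6 kb in the higher and 15.7 kb in the lower list, near the 20.9 and 19.0 kb of all listed regions. Beyond 100 kb lay 55 regions (14.1%, 10.8 to 17.9), against 11.5% (10.6 to 12.4) outside the set. Of the 391, 81 (20.7%, 16.8 to 25.1) overlapped the clone transcript whose start was nearest, near the 20.0% (18.9 to 21.1) of regions outside the set. The rest lay outside that transcript, though some were still inside the same clone gene through another transcript. One was in intron 1 of 9630028H03Rik, 76.5 kb from the start of a transcript of 2.77 kb.

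**Figure D2:**
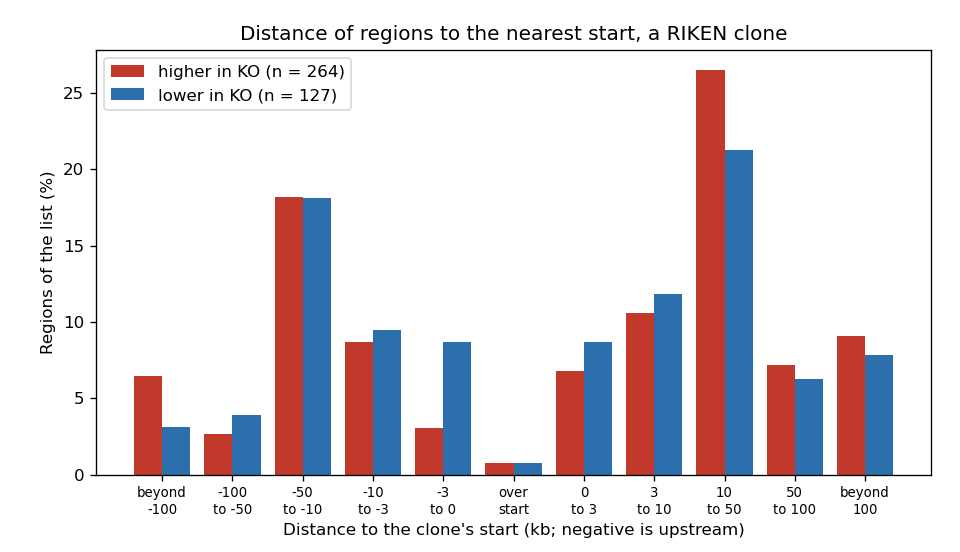
Distance in kb from each region to its nearest start where that start is a RIKEN clone (horizontal axis, negative upstream), as a percent of the 264 higher (red) and 127 lower (blue) regions. The class from 3 kb upstream to the start holds 3.03% of the higher and 8.66% of the lower regions, and the class from 10 to 50 kb downstream is the fullest in both.

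The 5 promoter regions nearest to a start in each list were at lncRNAs, the type of 77.7% of RIKEN genes in RefSeq. In the higher list, regions lay over the starts of A330049N07Rik (score 2.69), whose neighbour is the hair-cell cadherin gene Pcdh15, and of 4930432O09Rik (1.77), and 229 bases downstream of that of 4930405H06Rik (1.69). Scores come from the authors' lists, their scale is not stated, and here they serve only to rank regions within a list. Next came 5330413P13Rik (1.61), 257 bases upstream of the start, and 2310039L15Rik (2.82), 294 bases downstream, near Socs2, an inhibitor of cytokine signalling. In the lower list a region lay over the start that the lists give for 2310001H17Rik (2.22), with the lymphocyte activation gene Cd69 as the nearest coding gene. Others lay 63 bases upstream of A930014E01Rik (5.43), beside the fatty acid binding gene Fabp12, and 239 bases upstream of 4933402C05Rik (1.58), beside Nlrp4c. A further pair lay 343 bases downstream of 9030622O22Rik (2.77), near the endoderm factor gene Foxa2, and 405 bases upstream of 4930573C15Rik (3.61). The neighbours named here and below are the nearest protein-coding genes in RefSeq, given for orientation only. Some are far away. Irx1 was 353.8 kb from the closest region of 1700112M02Rik, and Cdh9 973.5 kb from that of 4930557F08Rik.

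The nearest start and the host were often different genes. Of the 212 RIKEN clone regions with a host, 155 had another gene's start nearest (73.1%, 66.6 to 79.0), against 1170 of all 2062 (56.7%, 54.6 to 58.9). The rule raises the first share, since a region qualifies through either gene. Among RIKEN hosts alone it was 52.5% (43.2 to 61.7), and among RIKEN nearest starts with a host 63.7% (55.7 to 71.2). The 446 regions fell into 5 kinds. The largest, 149 higher and 85 lower, had a RIKEN start nearest and no host (63.7% higher, 57.2 to 69.8). A further 65 and 27 had a RIKEN start nearest but lay in the body of another gene (70.7%, 60.2 to 79.7), which for 81 of the 92 was a named gene. In 42 and 15, start and body belonged to the same clone gene (73.7%, 60.3 to 84.5). In 43 and 12 the body was RIKEN and another start was nearest (78.2%, 65.0 to 88.2), and for 40 of these 55 that other start was of a predicted gene.

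The last kind, a nearest start of a RIKEN clone gene and the body of a different RIKEN clone gene, had 8 higher and 0 lower regions, a count too small to set apart. The highest-scoring was in the only intron of 4921539H07Rik on chromosome 3 from 58154695 to 58154973, with 1700007F19Rik as the nearest start (6.30). Another lay in intron 1 of 9530052E02Rik with B830042I05Rik nearest (4.96), beside Irs2, which encodes an adaptor of the insulin receptor. The others scored 1.95 or less. They included intron 5 of 2610037D02Rik with 4833422M21Rik nearest, intron 2 of 1700065L07Rik with 4931417E11Rik nearest, and intron 3 of 4930435C17Rik with 4930558N11Rik nearest.

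Scores of RIKEN clone regions were close to those of the lists as a whole. The median was 2.52 in the higher list (quartiles 1.95 and 3.69), the same as over all higher regions, and 2.77 in the lower list (2.19 and 3.67), beside 2.66 over all lower regions. RIKEN scores reached 19.5 among higher regions and 9.81 among lower ones, whereas scores of all higher regions reached 4950. Regions were short, with a median width of 405 bp (271 to 892) in the higher and 363 bp (263 to 804) in the lower list.

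**Figure D3:**
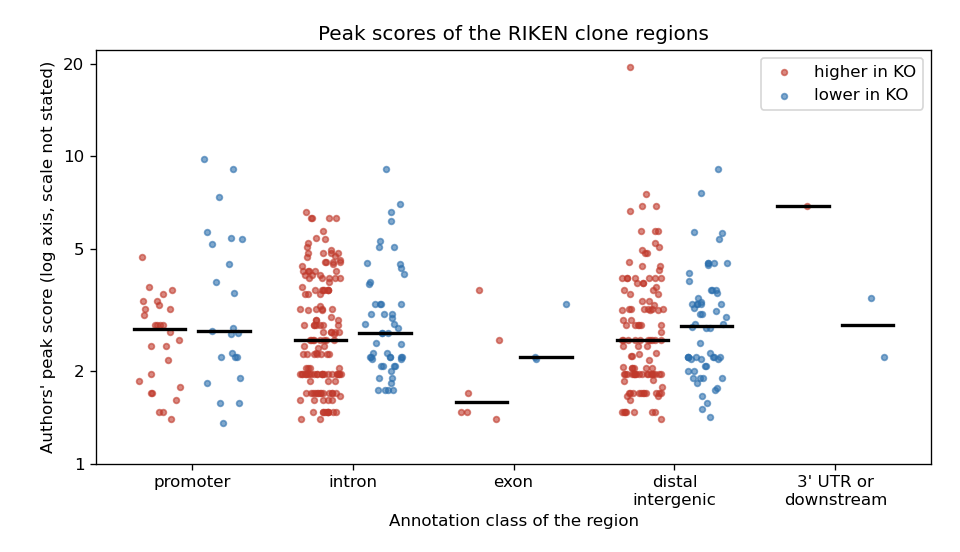
Authors' peak score (vertical, log axis, scale not stated) of each RIKEN clone region by annotation class, higher in KO in red and lower in blue, with the median as a black line. Scores rank regions within a list and are not compared between lists. The highest promoter score is 4.72 within the higher list and 9.81 within the lower list. In the higher list 1 intergenic region stands at 19.5.

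In the higher list the top region lay on chromosome 14 from 35692320 to 35692717, distal intergenic, with a score of 19.5. Its nearest start, 119 kb away, was 4930596D02Rik, a protein-coding clone gene, and the nearest coding gene with a name was Grid1, a glutamate receptor of the delta family. The next scored 7.55, at 4930405D11Rik on chromosome 11 from 91192950 to 91193307, 310 kb from the start. Regions near 1700042O05Rik, 5430403N17Rik and 1700055C04Rik scored 6.90 each, and the last is next to Smad6, which encodes an inhibitor of BMP signalling. An intergenic region 6.78 kb upstream of 4930428D20Rik scored 6.66.

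Intronic regions of RIKEN hosts completed the top of the higher list. Intron 4 of the lncRNA gene 6430710C18Rik on chromosome 2 from 72773699 to 72774147 scored 6.62, with Sp3, a zinc finger factor gene, as its neighbour. Intron 3 of A230108P19Rik and intron 2 of 4933432K03Rik scored 6.30 each, as did intron 6 of 5830411N06Rik. The last is a protein-coding gene with the RefSeq synonym Scart2, a scavenger receptor known from gamma delta T cells in mouse, and was chosen after its value was seen. Hosts whose nearest start was another gene also included 1700112D23Rik (5.39), 2410124H12Rik beside the chloride channel gene Clic6 (5.21), 1700095J03Rik beside the kinase gene Stk33 (4.86) and E030013I19Rik beside the integrin gene Itga8 (4.72).

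The top of the lower list included promoter regions, which the 10 best-scoring higher regions did not. Promoters were 16.6% of the 139 lower and 9.12% of the 307 higher RIKEN clone regions. Counts among 10 regions are too small to set the lists apart. The highest score in the lower list, 9.81, was on chromosome 9 from 108133740 to 108134139. This region lay between 2 and 3 kb upstream of 4930447F24Rik and inside Bsn, which encodes the presynaptic scaffold Bassoon. Intron 2 of 4921511I17Rik, a promoter region 872 bases from the start of 1700025K24Rik and an intergenic region near 4930453H23Rik on chromosome X scored 9.08 each. A region on chromosome 16 from 6048727 to 6049082, near 1700123O21Rik, scored 7.60, and a promoter region of 2500002B13Rik, beside the chromatin protein gene Hmgb2, scored 7.36. With a RIKEN start nearest, intron 2 of Dct, a melanin synthesis gene (6.99, 4930435M08Rik), and intron 2 of the kinase gene Prkce (6.61, 2010106C02Rik) followed. Intron 1 of 2610027F03Rik, whose neighbour is the homeobox gene En1, scored 6.17, and a promoter region of A430034D21Rik 5.68.

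Lower regions in RIKEN hosts with another start nearest scored 4.51 or less. They lay in intron 1 of 9530026P05Rik (4.51), intron 3 of 6530403H02Rik (3.31), exon 2 of 4930458D05Rik (3.31), intron 1 of 1700112M02Rik (3.07) and intron 3 of 4930578G10Rik (2.47), the last with the chemokine gene Ccl21a as the nearest start. The other exonic hosts in the lower list were D130079A08Rik (2.22), whose neighbour is the neuronal factor gene Pou4f1, and 4922502N22Rik (2.19). Exonic hosts in the higher list were 4930488L21Rik (3.69), 4930504O13Rik (2.52), 1300002E11Rik (1.69) and D630024D03Rik (1.48).

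Of the 393 clone genes, 342 had 1 region and 51 had more (13.0%, 9.82 to 16.7). By nearest start the share was also 13.0% (9.59 to 17.0), beside 12.1% (11.1 to 13.1) of genes outside the RIKEN set. Among the 51, 19 had higher regions only, 2 had lower regions only and 30 were in both lists (58.8%, 44.2 to 72.4). The 2 with lower regions only were 4930435M08Rik and 1700019G24Rik. Genes with a single direction were not counted over all listed regions, so the split of 19 and 2 has no background. The higher list is also the longer one. By nearest start, 26 of 44 repeated RIKEN genes were in both lists (59.1%, 43.2 to 73.7), against 267 of 531 others (50.3%, 45.9 to 54.6). The interval for RIKEN genes by nearest start includes the share of the others. A gene with higher and lower regions has no single direction, which applies to 30 of the 51 repeated genes.

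Genes with at least 3 regions show how these lay. 1700123O21Rik, a lncRNA on chromosome 16, had 4 intergenic regions over 276 kb, the first pair higher (3.18 and 4.40) and the next pair lower (7.60 and 1.66). RefSeq places 3 of them inside Rbfox1, which encodes a neuronal splicing regulator, whereas the lists call them intergenic. 4930557F08Rik was the gene with 3 regions in a single direction, all higher at 1.95, over 198 kb of chromosome 15 whose nearest coding gene is the cadherin gene Cdh9. 6430710C18Rik held its 3 regions within 17.0 kb, with a lower region (4.32) between 2 higher ones (6.62 and 1.95), the lower 4.58 kb from the first.

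The other genes with 3 regions were mixed as well. 4930587A21Rik, near the polarity gene Pard3b, had a lower region (4.51) 3.26 kb from a higher one (4.02) and a further higher one (3.06) in its promoter. 1700112M02Rik, with the homeobox gene Irx1 as neighbour, had higher regions (4.02 and 1.95) and a lower one (3.07), the last pair 3.72 kb apart. 5730408A14Rik was the nearest start to 3 regions in introns of Rgs7, a regulator of G protein signalling in neurons, of which 2 were higher (4.23 and 1.48) and 1 lower (2.22). M5C1000I18Rik had 2 higher (1.87 and 2.04) and 1 lower (1.90) region. D730003K21Rik, with the TGF-beta receptor gene Tgfbr2 and the RNA-binding protein gene Rbms3 as neighbours, had 1 higher (1.95) and 2 lower (1.90 and 3.45) regions, and 6330411D24Rik 1 higher (1.48) and 2 lower (2.08 and 2.00).

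**Figure D4:**
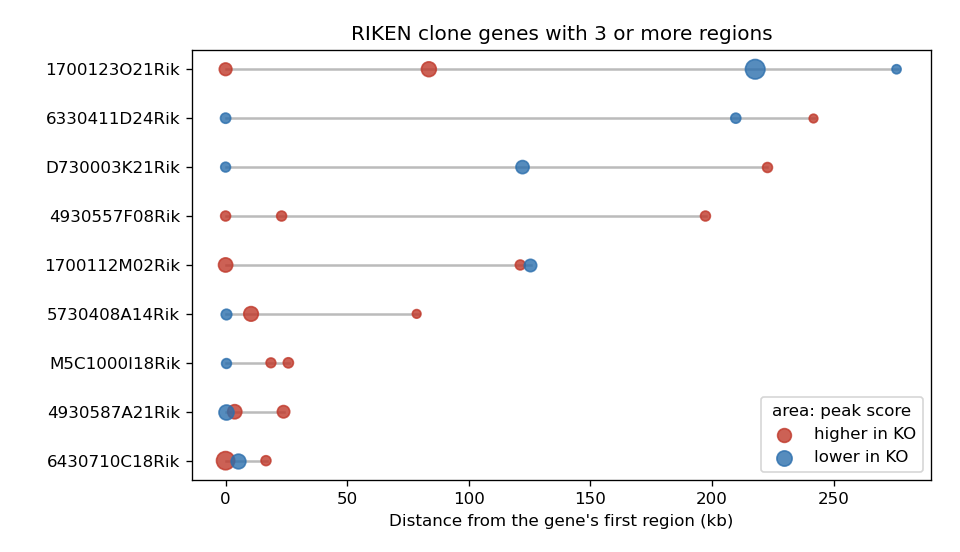
Regions of the 9 RIKEN clone genes with 3 or more, placed by distance in kb from the gene's first region (horizontal axis), red for higher and blue for lower in KO, with the area of a point in proportion to the authors' peak score. Higher and lower regions occur together in 8 of the genes, and 4930557F08Rik has higher regions only.

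Further genes with regions in both lists were 4930428D20Rik (6.66 higher, 5.63 lower), A230108P19Rik (6.30 higher, 1.73 lower) and 2610027F03Rik (4.01 higher, 6.17 lower). A930036I15Rik had both of its regions in introns of Ank2, which encodes the membrane adaptor ankyrin B (4.86 higher, 3.07 lower). D130009I18Rik (4.59 higher, 2.08 lower), 1700044K03Rik (4.86 higher, 2.19 lower) and 2610028E06Rik (2.52 higher, 4.51 lower) were also in both lists. The coding gene nearest to the lower region of 2610028E06Rik was Csf3r, a receptor that drives neutrophil production. Neighbouring RIKEN clone regions within 100 kb of each other formed 50 pairs, of which 45 shared a clone gene. In 26 pairs the direction was the same, 21 both higher and 5 both lower, and in 24 it was opposite. Pairs were not counted over all listed regions, so this split has no background, and the higher list is the longer one.

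The first 4 characters of a RIKEN symbol name the source library of the clone, and 6 of the codes stand for adult testis. Clones of these codes accounted for 218 of the 446 regions, 150 higher and 68 lower, 68.8% (62.2 to 74.9). Those of other codes had 157 and 71, 68.9% (62.4 to 74.8), a difference well within the intervals. How common testis codes are among all RIKEN genes was not computed. No excess of testis clones can therefore be read from these counts. For single codes, a region with different clone genes as start and host was counted once for each gene. The commonest code, that of 4930405D11Rik, was met 98 times (71 higher, 27 lower). The code of 1700123O21Rik was met 88 times (57 and 31), that of 4933432K03Rik 24 times (17 and 7) and that of 2310001H17Rik 13 times (7 and 6). By host, testis codes had 41 higher and 9 lower regions, 82.0% (68.6 to 91.4), and other codes 52 and 18, 74.3% (62.4 to 84.0), with intervals that overlap.

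RIKEN clone regions were spread over the autosomes and chromosome X. Over all chromosomes they were 446 of 5432 listed regions, 8.80% of the higher list and 7.15% of the lower list. They were most numerous on chromosome 1, with 29 higher and 10 lower. They made up the largest share on chromosome 14, 12.1% (8.21 to 17.0) of its listed regions. That interval includes the 8.80% of the higher list, and the chromosome was picked for its large share. The smallest share was on X, 2.98% (0.973 to 6.81), with 3 higher and 2 lower regions. Among these, the higher region at the protein-coding clone gene 5430427O19Rik lay in its promoter and scored 2.82. By direction, chromosome 12 had 18 higher and 2 lower regions and chromosome 13 had 19 and 3, while chromosome 9 had 9 and 10 and chromosome 14 had 15 and 13. These chromosomes lie toward the ends of the range. The share higher over all listed regions of a chromosome was not computed, so a balance particular to RIKEN clone regions cannot be read from them. With 5 to 39 regions per chromosome the intervals are wide, from 68.3 to 98.8% higher on chromosome 12 and from 24.4 to 71.1% on chromosome 9.

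**Figure D5:**
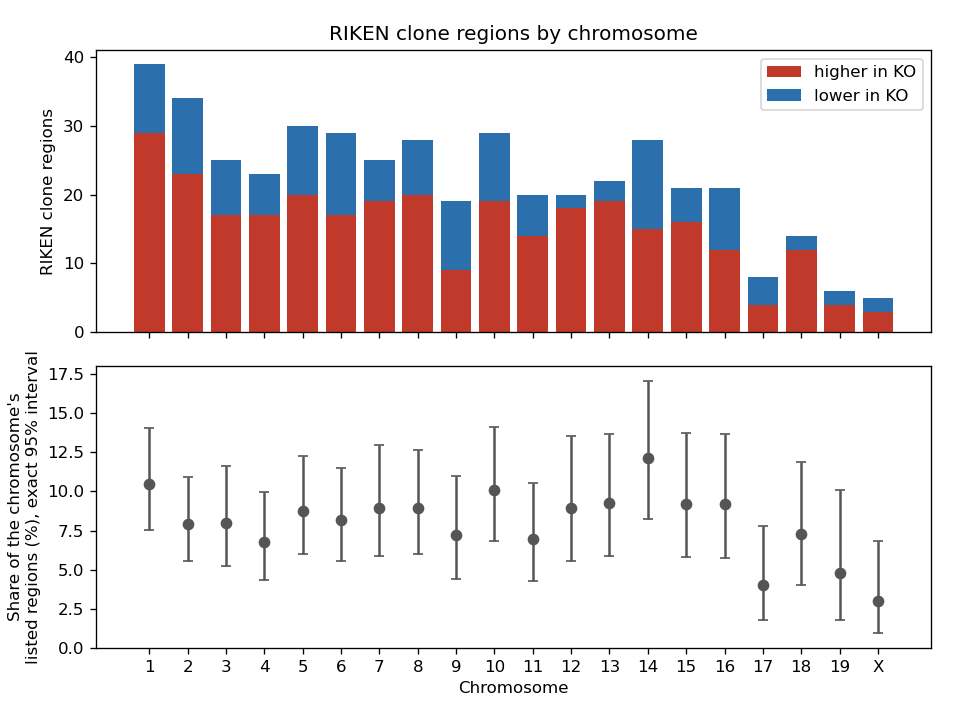
RIKEN clone regions by chromosome (horizontal axis): the number of regions stacked by list (top, red higher and blue lower in KO) and their share of all listed regions of that chromosome in percent with exact 95% intervals (bottom). The share is 12.1% on chromosome 14 and 2.98% on X, beside 8.80% of the whole higher list and 7.15% of the whole lower list.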

How the data were processed

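CUT&Tag libraries of H3K9me3 and IgG were made from 100000 sorted cells and amplified by PCR for 14 cycles, per the labels' protocols. CASAVA 1.4, Bowtie2 2, FastQC and mm9 appear in the submitters' processing notes, with no role assigned. Which caller, annotation tool and criterion produced the lists is not given in the sources used here. Per the file headers, the deposited lists give a position, a width, a peak score, an annotation class and the gene with the nearest start for each region. The score is the authors' value on an unstated scale, and depth is unknown.

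Members were regions whose nearest start or bracketed host symbol ended in Rik. Members and lists were chosen with earlier results of these data known. A few symbols stored as dates were replaced from the transcript name. Named genes followed a rule: the 10 highest scores per list, genes with at least 3 regions, up to 10 genes in both lists, the 5 promoter regions nearest to a start per list, exonic hosts, the 5 best-scoring hosts with another start per list, and 5 pairs of clone genes. Genes outside the rule, namely 5830411N06Rik, 1700019G24Rik and 5430427O19Rik, were chosen after their values were seen. A design without replicates allowed counts and shares only, with intervals from scipy 1.17.1, checked on simulated data. Biotypes, neighbours and promoters came from RefSeq GRCm38.p6 tables. Python 3.11.15, numpy 2.4.6, pandas 2.3.3 and matplotlib 3.10.9 were used. Alternatives were each way of assigning the gene alone, each gene counted once, a minimum score set 1 above the smallest, regions within 10 kb merged, autosomes alone, and the regions of each list that reach its median score.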

Additional observations from a re-analysis of the deposited data

How the results depend on the processing

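No paired analysis was possible because each genotype had 1 H3K9me3 library and the lists give no value per library. Of 69 alternative values, 52 stayed within the interval of the main share or within 1.5 times the main count, and 17 moved. By nearest start alone, 45.5% of higher regions were distal intergenic and 63.7% of regions with a host had another start nearest. By host alone, 77.5% were higher (93 and 27 regions), 82.0% among testis codes, 52.5% had another start nearest, and 11 genes were repeated, 8 of them in both lists. A score at least 1 above the smallest left 171 higher and 79 lower regions, 18 repeated genes and 12 in both lists. The better-scoring part of each list left 163 and 75, 16 and 12. The share higher was 68.4% and 68.5% under these, and by host 76.9% and 78.3%. Distal intergenic shares by host, and repeats with each gene counted once, have no value by construction. Unknown depth limits every count: a deeper library can bring more regions into its list.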
